A study of Mus musculus with 22 samples.

Results

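Metallothioneins and the genes of cellular iron handling were followed in FE1 cells given multi-walled carbon nanotubes. The 10 genes were Mt1, Mt2, Slc30a1, Fth1, Ftl1, Tfrc, Slc40a1, Slc11a2, Ireb2 and Aco1, taken by matching the accession of each probe to these symbols. They were read by 13 of the 55681 non-control probes and made up 10 of 20018 genes with a symbol. Tfrc had 3 probes and Slc11a2 had 2, of which the brightest stands for the gene below, and each other gene had 1.

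FE1 is an epithelial cell line from the lung of a MutaMouse, a strain that carries a transgene for mutation assays. It is 1 line, grown here in medium with fetal serum and murine epidermal growth factor. Cells received Mitsui7, a multi-walled carbon nanotube material, for 24 h. The dose was 0 µg/ml in controls (n = 5), 12.5 µg/ml at the low dose (n = 6), 25 µg/ml at the medium dose (n = 5) and 100 µg/ml at the high dose (n = 6). The Mitsui7 was suspended by sonication in culture medium. The RNA of each sample carried Cy5, and Universal Mouse Reference RNA from 11 mouse cell lines carried Cy3 on all 22 arrays. A value is therefore the log2 ratio of FE1 cells to this reference after loess normalisation, and a change is the difference between such ratios, fitted by limma with slide as a term.

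Metallothioneins are small, cysteine-rich proteins that bind zinc, copper and cadmium, and their genes are switched on by zinc through the transcription factor MTF1. Slc30a1, the zinc exporter ZnT1 of the cell surface, is a further target of MTF1. Iron enters the cell as transferrin through the transferrin receptor, crosses the endosome through Slc11a2 (DMT1), is stored in ferritin, whose heavy and light chains are Fth1 and Ftl1, and leaves through ferroportin, Slc40a1. Aco1 and Ireb2 encode the iron regulatory proteins, which bind iron-responsive elements when iron is scarce. This binding blocks the translation of ferritin and ferroportin, a control that lies outside the transcript levels that an array measures. It also protects the transferrin receptor transcript from decay, which does act on the transcript level.

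Hybridisation used 5 slides. Each group had 2 arrays on slide 1 and 1 on each of slides 2, 3 and 4, except that slide 5 added a low dose and a high dose array. Between 23688 and 39139 probes per array rose above the negative control spots in the Cy5 channel. The lowest counts were those of the controls on slide 4 (23688) and slide 2 (24508), and the highest was that of the control on slide 3. No high dose array held fewer than 29562. The control on slide 2 also had the highest share of spots marked as outliers, 6.22%. Of the 6 epithelial markers listed, 4 were detected in at least 4 control arrays. Krt8 and Krt18 were detected on all 22 arrays, Epcam on 10 and Cdh1 on 0, and the control means of Krt8 and Krt18 stood at log2 ratios of -4.35 and -5.62 against the reference. All 4 fibroblast markers (Col1a1, Col3a1, Pdgfra and Vim) were detected on all 22 arrays, so the markers did not separate the line from a fibroblast-like one. In at least 4 control arrays 2 of 3 macrophage and 2 of 3 endothelial markers were detected too. Detection alone therefore did not name a cell type.

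Mt1 fell at all 3 doses and Mt2 at the medium and the high dose. Tfrc and Slc40a1 rose at all 3 doses and Ftl1 at the medium and the high dose, each by less than 1.5-fold. Slc30a1, Fth1, Slc11a2, Ireb2 and Aco1 did not pass at any dose. To be called, a gene had to be detected on 4 or more arrays of a group and to differ 1.5-fold or more with an adjusted p no higher than 0.05. At the low dose 1 of the 10 genes was called, against 5.1% of the 13642 detected genes with a symbol. At the medium dose 2 of 10 were called, against 8.8% of 13412 genes, and at the high dose 2 of 10, against 11.7% of 14027 genes. All these calls, made on the brightest probes, were decreases of metallothioneins. A second probe of Tfrc was called higher at the high dose. With no limit on the fold, 3 of 10 passed the adjusted p at the low dose (2 higher, 1 lower), where 9.4% of all detected genes did. At the medium and the high dose 5 of 10 passed (3 higher, 2 lower), where 14.5% and 20.3% of all detected genes did. The 3 comparisons share the control arrays. The median change of the 10 genes was 0.13, 0.12 and 0.03 on the log2 scale at the low, medium and high dose, and that of all detected genes lay between 0.00 and 0.01. With 10 genes a single call moves the share by 10%, so the results are given gene by gene.

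**Figure D1:**
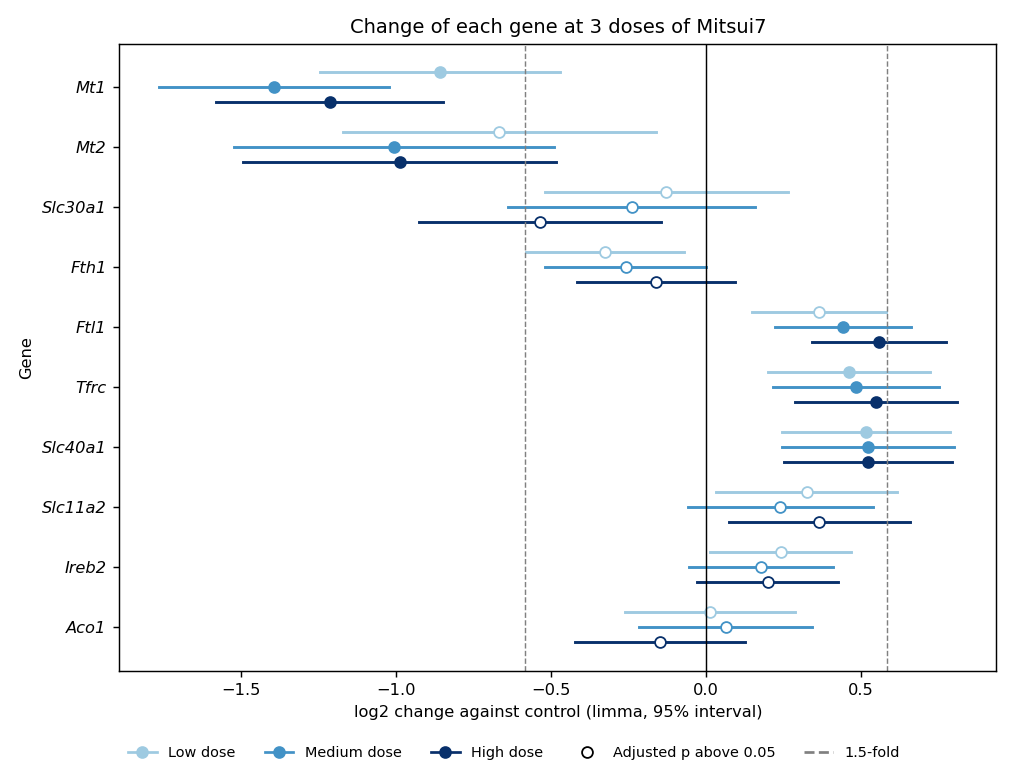
Log2 change of each of the 10 genes against control (x axis) at the low, medium and high dose, with the 95% interval from limma; filled points passed an adjusted p of 0.05, open points did not, and dashed lines mark 1.5-fold. Mt1 and Mt2 lie left of the lower dashed line at every dose, although Mt2 did not pass at the low dose, and the points of Ftl1, Tfrc and Slc40a1 lie to the right of 0 but inside the upper dashed line.

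Mt1 fell at every dose. Its spot was among the brightest on the arrays, dimmer than only the top 0.97% of probes, and was saturated on 0 of 22. The spot was marked as an outlier on 1 control and 1 low dose array, both on slide 3, and those values were left missing. The 4 control values were 0.46, -0.24, -0.29 and -0.16. The 5 low dose values were -1.24, -0.81, -0.77, -1.25 and -0.89, and the 5 medium dose values were -1.26, -1.34, -1.43, -2.04 and -1.31. At the high dose the 6 arrays ranged from -1.71 to -0.85, with a median of -1.38. Every exposed array stood below every control array. The change was -0.86 ± 0.18 (SE) at the low dose, a 1.81-fold decrease with an adjusted p of 0.0114. It was -1.40 ± 0.18 at the medium dose, 2.63-fold lower with an adjusted p of 6.31e-05, and -1.21 ± 0.17 at the high dose, 2.32-fold lower with an adjusted p of 0.000131. Within the 3 slides that held a control value the difference ran from -1.13 to -0.48 at the low dose, from -1.75 to -1.16 at the medium dose and from -1.30 to -0.98 at the high dose. With the marked spots kept, the change was -0.90, -1.39 and -1.21 at the 3 doses, all called. Scaling each array by its median in place of loess gave -1.03, -1.21 and -1.23, but none then passed (adjusted p 0.350, 0.174 and 0.0953), nor did any other of the 10 genes. The low dose call was also lost without slide 1 (-0.63, adjusted p 0.228) and with only the groups compared in the model (-0.87, adjusted p 0.263). Without slide 1 the medium dose change was -1.38 (adjusted p 0.00535) but could not be called, since 3 arrays a group cannot meet the detection rule, and the high dose call stood.

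Mt2, the neighbouring metallothionein gene, varied more between control arrays. The 5 control values were 1.16, 0.55, 0.21, 0.09 and -1.13, the last on slide 4. Low dose arrays ranged from -1.07 to -0.03 with a median of -0.46, and high dose arrays from -1.35 to -0.19 with a median of -0.85. The 5 medium dose values were -0.37, -0.72, -0.64, -1.61 and -0.82. The groups overlapped because of the control array on slide 4, and only 1 medium dose and 2 high dose arrays stood below every control. Mt2 fell 2.01-fold at the medium dose (change -1.01 ± 0.25, adjusted p 0.0176) and 1.98-fold at the high dose (-0.99 ± 0.24, adjusted p 0.0116). At the low dose its change was -0.67 ± 0.24 with an adjusted p of 0.173. Within slides the difference was below 0 on 3 of 4 slides at the low and the medium dose and on 4 of 4 at the high dose, the exception being slide 4 at 0.23 and 0.31. Without the control array on slide 4 the low dose change became -0.92 with an adjusted p of 0.025 and was called. Without slide 1 the changes were -0.37, -0.74 and -0.83, none called, and without a slide term the medium and high dose calls were lost as well (adjusted p 0.126 and 0.0637). The medium dose call was also lost without the first control on slide 1 (adjusted p 0.0581), the control on slide 3 (adjusted p 0.0644) or the medium dose array on slide 2 (adjusted p 0.0748). Without slide 3 neither call stood (adjusted p 0.0592 and 0.0664). Over the 20 arrays with both values, the slide-adjusted log2 ratios of Mt1 and Mt2 had a Pearson correlation of 0.868, a description that takes in the difference between control and exposed arrays.

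**Figure D2:**
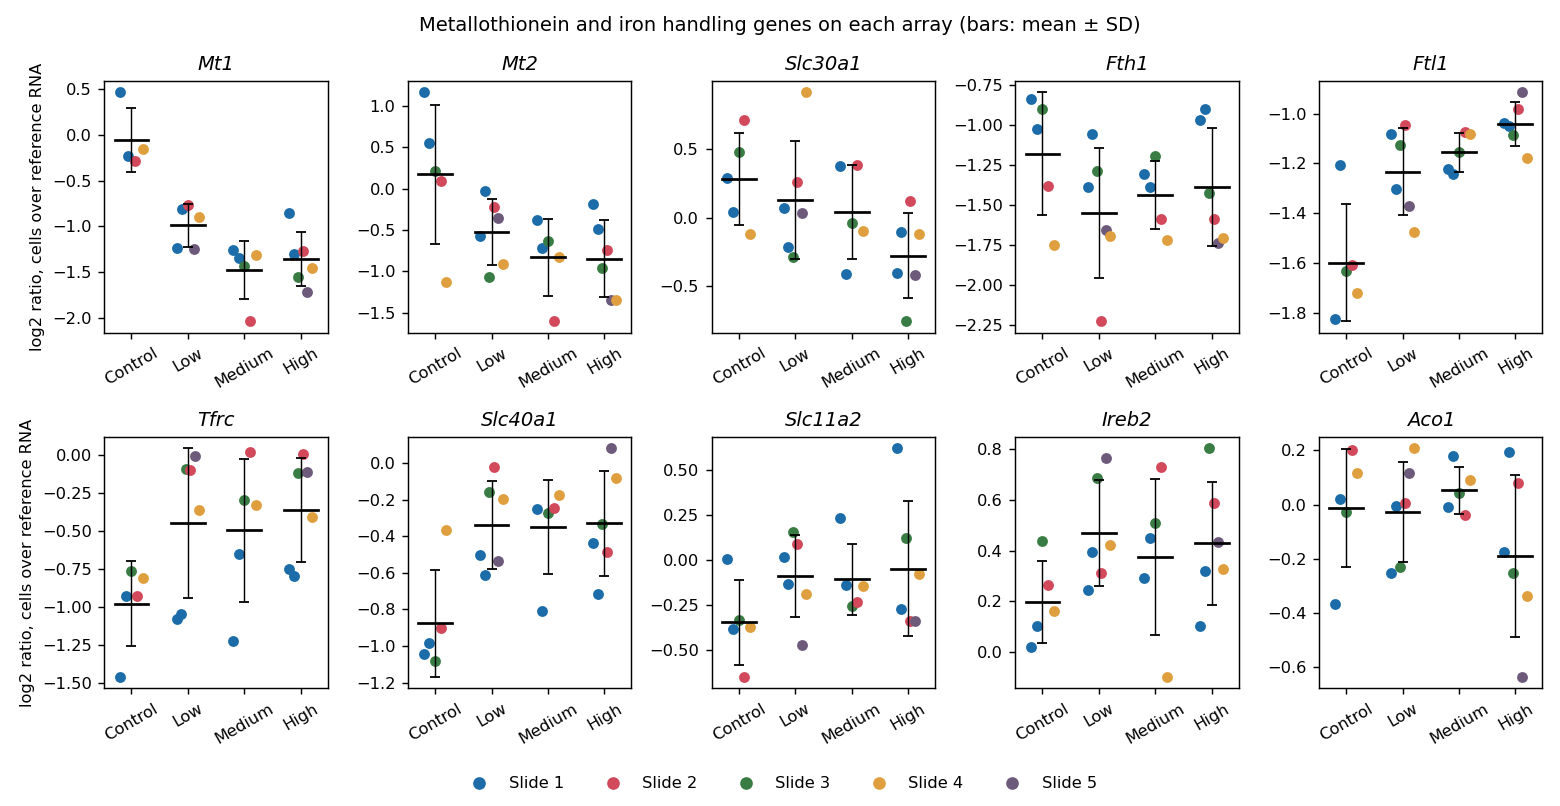
Log2 ratio of FE1 cells to reference RNA (y axis) on each array for the 10 genes, by dose group, with points coloured by slide and bars at the mean ± SD. All Mt1 points of exposed cells lie below the 4 control points, the Mt2 control on slide 4 lies at -1.13 among the exposed arrays, and all 6 high dose points of Ftl1 lie above the 5 controls.

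The promoters of both metallothionein genes are shown because the genes fell together, and that of Slc30a1 for comparison. Sequences are those of RefSeq on GRCm38.p6, all on the plus strand, and cover the 250 bases before the annotated start. On this build the annotated starts of Mt2 and Mt1 lie 6471 bases apart on chromosome 8. Capitals mark matches to TGCACNC or TGCGCNC, the core of the metal response element to which MTF1 binds, on either strand.

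Mt1, chr8:94178839-94179088: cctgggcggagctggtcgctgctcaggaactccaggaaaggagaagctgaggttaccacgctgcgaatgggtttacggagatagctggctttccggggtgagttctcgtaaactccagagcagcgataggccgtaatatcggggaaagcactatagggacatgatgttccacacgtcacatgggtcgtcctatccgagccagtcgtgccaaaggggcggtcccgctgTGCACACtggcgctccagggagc
Mt2, chr8:94172368-94172617: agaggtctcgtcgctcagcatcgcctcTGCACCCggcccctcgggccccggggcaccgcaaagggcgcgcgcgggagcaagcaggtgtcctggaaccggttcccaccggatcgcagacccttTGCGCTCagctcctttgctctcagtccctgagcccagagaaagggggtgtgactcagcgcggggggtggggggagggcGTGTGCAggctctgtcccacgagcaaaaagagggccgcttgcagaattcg
Slc30a1, chr1:191906531-191906780: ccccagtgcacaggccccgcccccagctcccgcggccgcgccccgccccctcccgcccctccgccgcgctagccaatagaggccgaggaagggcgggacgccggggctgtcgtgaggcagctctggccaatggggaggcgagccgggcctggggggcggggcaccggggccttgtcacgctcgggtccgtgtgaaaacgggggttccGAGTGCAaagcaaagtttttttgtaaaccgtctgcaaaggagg

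In these 250 bases Mt1 held 1 match, Mt2 held 3 and Slc30a1 held 1. At least 1 match was present in 21.4% of all 32851 promoters of this length and at least 3 in 1.26%. Mt1 held 2 further matches just after its annotated start, at bases 3 to 9 and 21 to 27, in the stretch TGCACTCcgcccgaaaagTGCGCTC (chr8:94179091-94179115). In the same 50 bases Mt2 and Slc30a1 held 1 match each. In the whole window of 300 bases Mt2 thus held 4, Mt1 held 3 and Slc30a1 held 2, where 25.7% of promoters held at least 1 and 1.97% at least 3. No promoter of Fth1, Ftl1 or Ireb2 held a match, Aco1 held 1 after its start, and 1 of 2 annotated starts of Tfrc held 2 that overlap each other. These are matches of letters, and the arrays did not measure binding. Positions and counts rest on the annotated starts, whose use in FE1 cells was not measured. Matches outside the 300 bases were not sought, so the counts do not cover a whole promoter.

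Slc30a1 did not pass at any dose. Control values were 0.29, 0.04, 0.48, 0.72 and -0.12, and medium dose values 0.38, -0.41, -0.04, 0.38 and -0.10. Low dose arrays ranged from -0.29 to 0.91 and high dose arrays from -0.76 to 0.12, so all groups overlapped. The change was -0.13 ± 0.19 at the low dose (adjusted p 0.852), -0.24 ± 0.19 at the medium dose (adjusted p 0.668) and -0.54 ± 0.19 at the high dose (adjusted p 0.096). The high dose change rested on single arrays: without the control array on slide 4 it was -0.70 with an adjusted p of 0.0218, and it was called, but without the control on slide 3 it was -0.40 (adjusted p 0.33) and without all of slide 3 -0.36 (adjusted p 0.481). With the sample number as a replicate block in place of slide it was -0.65 with an adjusted p of 0.00457, and was called too.

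Among other genes of the metallothionein system, neither Mtf1 nor Mt3 passed. Mtf1 changed by 0.29, 0.32 and 0.32 at the 3 doses (adjusted p 0.281, 0.195 and 0.149), and Mt3, the metallothionein best known from brain, by -0.01, -0.15 and -0.21 (lowest adjusted p 0.341).

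Most of the markers of fibroblasts, 3 of 4, moved with the metallothioneins. Of the 4, Col1a1, Col3a1 and Pdgfra were called lower at all 3 doses. Among all detected genes 404 of 13642, 618 of 13412 and 886 of 14027 were called lower from the low to the high dose. Vim went the other way without passing, by 0.14, 0.39 and 0.14 (lowest adjusted p 0.539). The mean log2 ratio over the 4 genes ran from 0.11 to 0.47 on control arrays, from -0.92 to 0.22 at the low dose, from -0.86 to -0.42 at the medium dose and from -1.04 to -0.48 at the high dose. No epithelial, alveolar, macrophage or endothelial marker was called at any dose. The epithelial list ranged from -3.30 to -2.51 in controls and from -3.26 to -2.79 at the high dose. Fewer cells of a kind and less RNA per cell cannot be told apart in these samples, and the part of either in the decrease of Mt1 and Mt2 was not tested.

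The ferritin chains did not move alike in the tests. Ftl1 rose to a small extent, and Fth1 did not pass at any dose. Both spots were among the brightest 0.71% of probes and saturated on 0 arrays. Both genes have many processed copies in the mouse genome, and hybridisation of copies to these probes cannot be told apart from that of the genes. Ftl1 controls stood at -1.83, -1.21, -1.63, -1.61 and -1.72. Medium dose arrays stood at -1.22, -1.24, -1.15, -1.07 and -1.08, and high dose arrays between -1.18 and -0.91 with a median of -1.04. At the low dose the range was -1.48 to -1.04, with a median of -1.21. All 6 high dose arrays, but 3 of 6 low dose and 3 of 5 medium dose arrays, stood above every control, the highest control being on slide 1. The change was 0.37 ± 0.10 at the low dose (adjusted p 0.0573), 0.44 ± 0.11 at the medium dose (1.36-fold, adjusted p 0.0138) and 0.56 ± 0.10 at the high dose (1.47-fold, adjusted p 0.00108). Within slides it was above 0 on 4 of 4 slides at each dose, between 0.24 and 0.57, 0.28 and 0.64, and 0.47 and 0.63. Without the highest control the high dose change was 0.67 and was called, and with the replicate block in place of slide it was 0.60 and was called, and the low dose change passed (adjusted p 0.0193). The high dose change passed whichever array or slide was left out, but the medium dose change did not pass without slide 2, 3 or 4 (adjusted p 0.0766, 0.0876 and 0.0849) or the medium dose array on slide 4 (adjusted p 0.0625).

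Fth1 controls stood at -0.84, -1.02, -0.90, -1.38 and -1.75 and medium dose arrays at -1.31, -1.39, -1.20, -1.59 and -1.72. The range was -2.23 to -1.06 at the low dose and -1.74 to -0.90 at the high dose, and the groups overlapped throughout. The change was -0.33 ± 0.12, -0.26 ± 0.12 and -0.16 ± 0.12 from the low to the high dose, with adjusted p of 0.191, 0.334 and 0.603. At the medium dose the authors' processed ratios gave 0.05, the opposite sign, while the scanner's log ratios gave -0.44, which passed (adjusted p 0.0284).

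**Figure D3:**
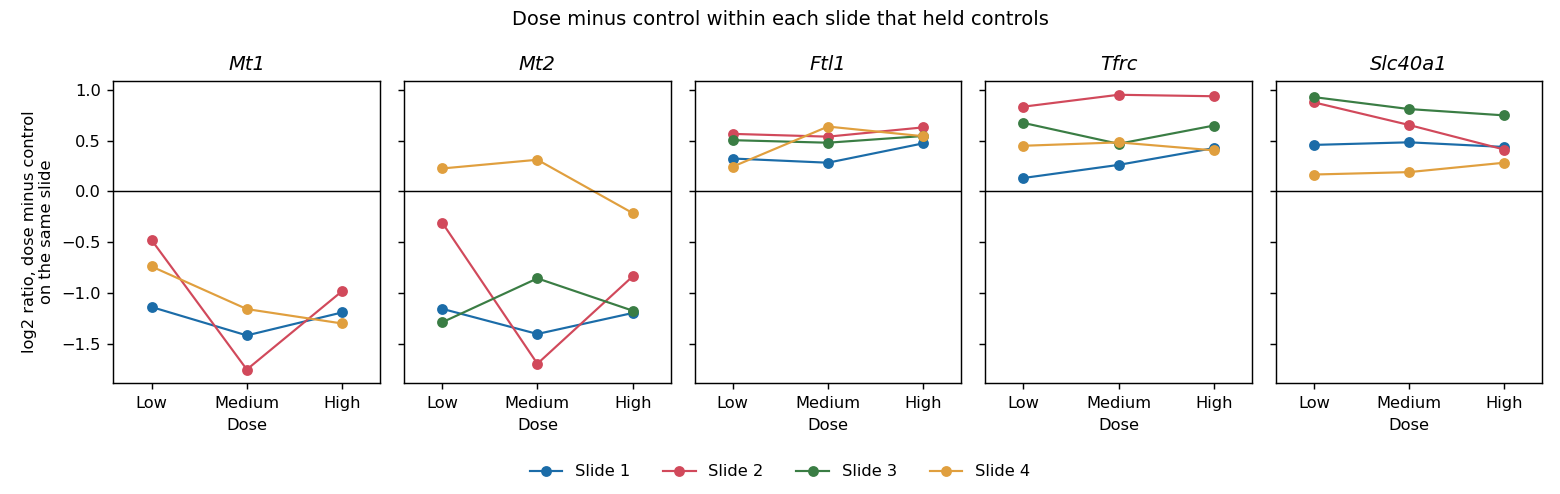
Difference of the log2 ratio between exposed and control arrays of the same slide (y axis) for Mt1, Mt2, Ftl1, Tfrc and Slc40a1 at the 3 doses, 1 line per slide; slide 5 held no control, and Mt1 has no control value on slide 3. Every line of Ftl1, Tfrc and Slc40a1 lies above 0 and every line of Mt1 below 0, whereas the line of slide 4 for Mt2 runs from 0.23 and 0.31 to -0.21.

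Tfrc, the transferrin receptor through which cells take up iron, rose to a small extent at all 3 doses by its brightest probe, which had 10 spots on each array. Control values were -1.46, -0.93, -0.76, -0.93 and -0.81, and medium dose values -1.22, -0.65, -0.29, 0.02 and -0.33. Low dose arrays ranged from -1.08 to 0.00 with a median of -0.23, and high dose arrays from -0.79 to 0.01 with a median of -0.26. The 2 lowest values of the low and of the high dose lay on slide 1, as did the lowest control and the lowest medium dose value, and 4 of 6, 4 of 5 and 5 of 6 arrays stood above every control. The change was 0.46 ± 0.13 at the low dose (1.38-fold, adjusted p 0.0449), 0.48 ± 0.13 at the medium dose (1.40-fold, adjusted p 0.0286) and 0.55 ± 0.13 at the high dose (1.46-fold, adjusted p 0.0068). Within slides it was above 0 on 4 of 4 slides at every dose. With the replicate block in place of slide the high dose change was 0.61 and was called, while with neither term none of the 3 passed (adjusted p 0.398, 0.490 and 0.168). With each of the 22 arrays left out in turn, the change passed in 6 fits at the low dose, 16 at the medium dose and 22 at the high dose. Leaving out a single control other than the second of slide 1 gave the low dose change an adjusted p between 0.068 and 0.186. At the medium dose 3 of these 4 controls had the same effect (adjusted p between 0.0683 and 0.113), as had 3 medium dose arrays (between 0.0755 and 0.0961). Without the second control of slide 1 the changes were 0.58, 0.60 and 0.67, called at the medium and the high dose. Without slide 1 they were 0.67, 0.63 and 0.65, called at the low and the high dose, whereas without slide 2 none passed (adjusted p 0.242, 0.194 and 0.0548) and without slide 3 none passed (adjusted p 0.246, 0.12 and 0.0567). The second probe changed by 0.43, 0.46 and 0.67 and passed at the high dose alone, where it was called (1.59-fold, adjusted p 0.0371). The third was dim, with no value on slide 2, changed by 0.31, 0.24 and 0.34 and passed at no dose.

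Slc11a2 carries iron out of the endosome after its release from transferrin, and its change did not pass. Control values of the brighter probe were 0.01, -0.39, -0.33, -0.65 and -0.37, and medium dose values were 0.24, -0.14, -0.25, -0.23 and -0.14. Values at the low dose lay between -0.47 and 0.15 and at the high dose between -0.34 and 0.62, overlapping the controls. The change was 0.33 ± 0.14, 0.24 ± 0.14 and 0.37 ± 0.14, with adjusted p of 0.289, 0.49 and 0.139. It was above 0 on 4 of 4 slides at every dose. The dimmer probe changed by 0.00, 0.07 and 0.03, so the probes of this gene differed by more than their standard errors at the low and the high dose, a difference that was not tested.

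Slc40a1, ferroportin, is the route by which iron leaves the cell, and it rose by about the same amount at each dose. Control values were -1.04, -0.99, -1.08, -0.90 and -0.37, the last on slide 4. Medium dose values were -0.25, -0.81, -0.27, -0.25 and -0.18. Low dose arrays ranged from -0.61 to -0.02 with a median of -0.35, and high dose arrays from -0.72 to 0.08 with a median of -0.39. Every exposed array stood above the 4 controls of slides 1 to 3, while 3 of 6 low dose, 4 of 5 medium dose and 3 of 6 high dose arrays stood above the control of slide 4 as well. The change was 0.52 ± 0.13 at the low dose (1.43-fold, adjusted p 0.0292), 0.52 ± 0.13 at the medium dose (1.44-fold, adjusted p 0.0218) and 0.52 ± 0.13 at the high dose (1.44-fold, adjusted p 0.0126). Without the control of slide 4 it was 0.59, 0.60 and 0.60, and all 3 were called. Without the control of slide 3 none of the 3 passed (0.44, 0.45 and 0.45, adjusted p 0.129, 0.0976 and 0.0632). None passed without slide 1 (adjusted p 0.173, 0.172 and 0.0963) or without slide 3 (adjusted p 0.234, 0.156 and 0.0959) either. Without the control of slide 2 the low and medium dose changes did not pass (adjusted p 0.0974 and 0.0656). With each of the 22 arrays left out in turn, the change passed in 16, 17 and 21 fits at the low, medium and high dose. The scanner's own log ratios gave 0.57, 0.72 and 0.72, with calls at the medium and the high dose.

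The iron regulatory proteins did not pass at any dose. Ireb2 controls stood between 0.02 and 0.44 and its changes were 0.24 ± 0.11, 0.18 ± 0.11 and 0.20 ± 0.11, with adjusted p of 0.323, 0.527 and 0.38. Its exposed arrays ranged from -0.10 to 0.80. Aco1, the cytosolic aconitase that turns into an RNA-binding protein when it loses its iron-sulfur cluster, changed by 0.02 ± 0.13, 0.06 ± 0.13 and -0.15 ± 0.13, with adjusted p of 0.98, 0.911 and 0.692. Its control arrays ranged from -0.37 to 0.20 and its exposed arrays from -0.64 to 0.21. The Aco1 probe was the dimmest of the 10, above the negative controls on 19 of 22 arrays and well above background on 15. Its level relative to the reference in controls was -0.01 ± 0.22 (SD, n = 5).

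No gene of the 10 was called between doses. Between the high and the low dose 0.421% of 14256 detected genes were called, and between the high and the medium and the medium and the low dose 0% of 14107 and of 13876. At an unadjusted p under 0.05, 2 of the 10 genes differed between high and low dose. The count was 0 between high and medium and 1 between medium and low. At that limit 4491, 2275 and 3101 of the 55681 probes, detected or not, differed in the same order of comparisons. An ordinary linear model called none of the 10 either. The 2 genes between high and low dose were Mt1 (change -0.36, adjusted p 0.583) and Slc30a1 (-0.41, adjusted p 0.537). Mt1 was lower at the medium than at the low dose by 0.54, with all 5 medium dose arrays below every low dose array, but its adjusted p was 0.885. For Slc40a1 the high minus low difference was 0.01 ± 0.12 and for Tfrc 0.08 ± 0.12.

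Other genes of metal handling were counted in 6 lists of 105 genes, all on the array. Of those detected, 6 of 88 were called at the low dose, 9 of 87 at the medium dose and 13 of 89 at the high dose, that is 6.82%, 10.3% and 14.6%, beside 5.1%, 8.8% and 11.7% of all detected genes. Their median changes were -0.07, -0.03 and -0.03. At the high dose 9 of the 13 were higher and 4 lower, where 755 of all detected genes were called higher and 886 lower.

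Among the 22 zinc genes detected at the high dose, 2 calls were increases and 2 were decreases, where 11.7% of all detected genes were called. Slc30a4, a transporter that loads zinc into vesicles, rose from -0.27 ± 0.52 (SD, n = 5) in controls to 0.96 ± 0.30 (SD, n = 6), a change of 1.32 with an adjusted p of 5.68e-05, and was called at the other doses too (1.03 and 1.36). Slc39a10, a zinc importer, fell by 0.72 at the high dose (adjusted p 0.00038), from 1.78 ± 0.15 (SD, n = 5) to 1.13 ± 0.31 (SD, n = 6), and did not pass at the lower doses. Slc39a6, another importer, was called higher (0.87) and Slc39a1 lower (-0.59). The median change of the list was -0.09.

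In the list of iron transport and its control, 16 genes were detected at the high dose, with 1 increase and 2 decreases called. The share of all detected genes called there was 11.7%. Trf, transferrin, the plasma carrier of iron and the ligand of Tfrc, had the largest decrease of the 6 lists. Its controls ranged from 2.23 to 3.32, low dose arrays from 0.22 to 1.43, medium dose arrays from -0.16 to 1.47 and high dose arrays from -0.69 to 0.52. All exposed arrays were under the lowest control. The change was -1.61, -2.10 and -2.73 at the 3 doses, or 3.06-, 4.29- and 6.64-fold lower, with adjusted p of 0.00191, 1.0e-04 and 1.88e-06, and a second probe gave -1.87, -2.08 and -2.66. Cp, the ferroxidase ceruloplasmin, fell by 1.01 at the high dose. Steap1, of the STEAP family, rose by 0.61 at the high dose (adjusted p 0.0167) and by 0.62 at the medium dose (adjusted p 0.0272). Its controls ranged from 0.63 to 2.48 and its high dose arrays from 1.70 to 2.68, so these groups overlapped.

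**Figure D4:**
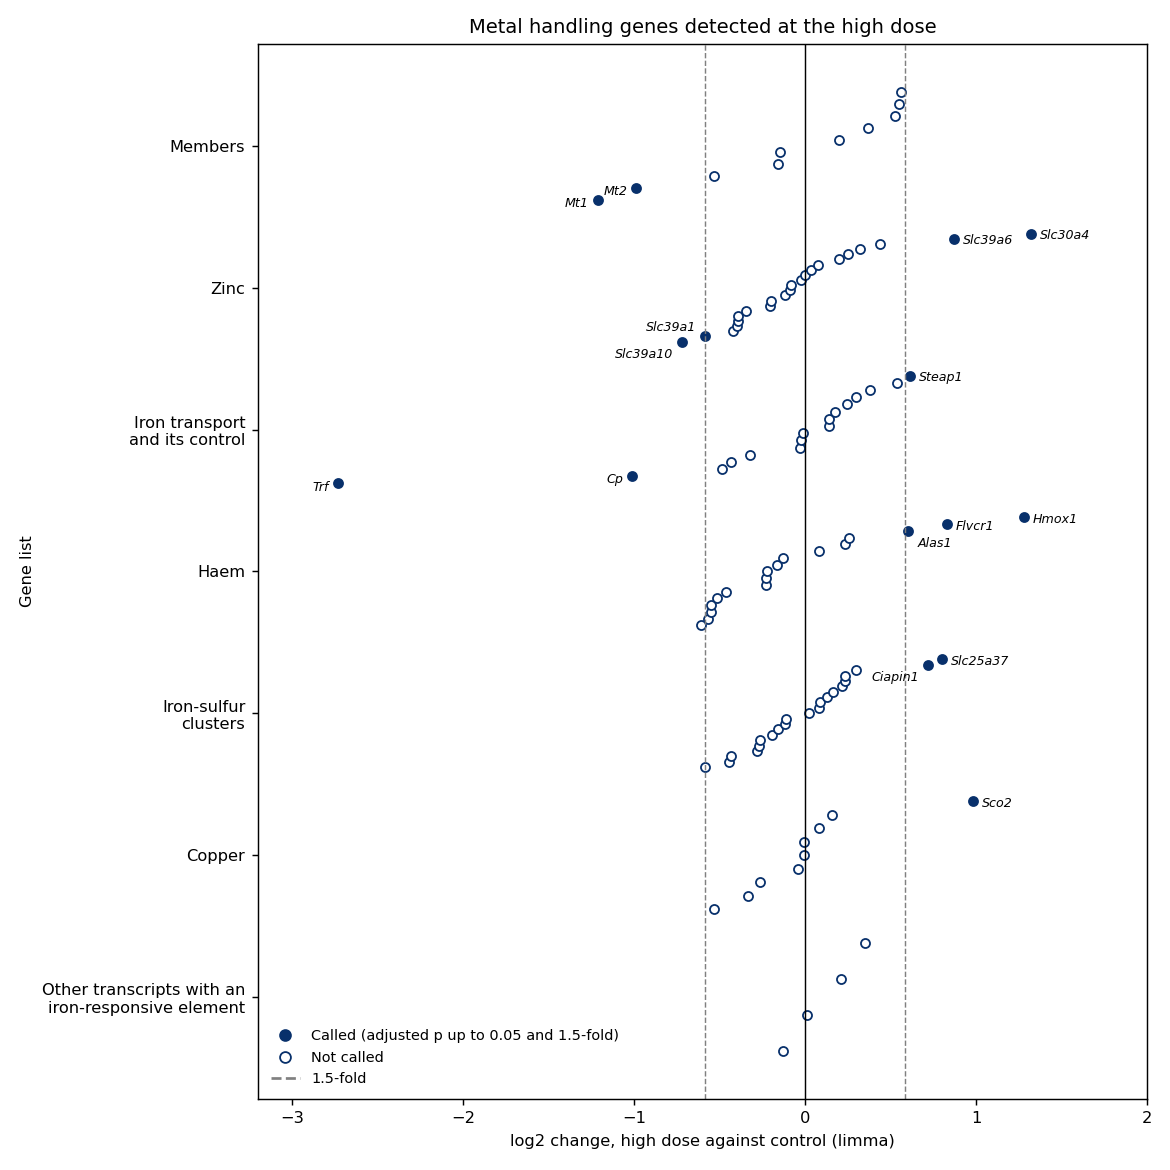
Log2 change at the high dose against control (x axis) of the 10 genes and of the detected genes of 6 other metal lists; filled, named points were called, open points were not, and dashed lines mark 1.5-fold. Trf lies farthest left at -2.73, Slc30a4 and Hmox1 farthest right at 1.32 and 1.28, and most genes of each list lie between the dashed lines.

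Of 17 haem genes, the high dose gave 3 called increases and 0 decreases, and 4 more passed in the lower direction without reaching 1.5-fold. Of all detected genes 11.7% were called at this dose and 20.3% passed the adjusted p. Hmox1, the inducible haem oxygenase that releases iron from haem, rose by 0.80, 1.14 and 1.28 (adjusted p 0.0234, 0.000995 and 0.000151). Its controls ranged from -1.94 to -1.19 and its high dose arrays from -0.72 to 0.57. A second, dimmer probe of Hmox1 changed by 0.59, 0.45 and 0.59 and did not pass. Flvcr1, a haem exporter, and Alas1, the first enzyme of haem synthesis, were called higher as well (0.83 and 0.60).

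Iron-sulfur cluster genes numbered 21, with 2 called increases and 0 decreases at the high dose, near the 11.7% called among all detected genes. Slc25a37, mitoferrin, which brings iron into mitochondria, rose by 0.80 (adjusted p 0.000395), though a second probe changed by 0.30 (adjusted p 0.162), and Ciapin1 rose by 0.72. Of 9 detected copper genes 1 was called, again near that share. It was Sco2, a copper chaperone of cytochrome oxidase, which rose by 0.68, 0.70 and 0.98. Of 4 other detected transcripts with an iron-responsive element none passed at any dose, their high dose changes lying between -0.13 and 0.35.

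The genes most like Mt1, Fth1 and Tfrc were sought among 9876 genes detected on at least 20 arrays, by Pearson correlation of slide-adjusted log2 ratios. Over 20 arrays Mt1 was most like Ccdc80 (r = 0.970), Pdlim4 (0.968) and Cfhr2 (0.963), whose high dose changes were -1.02, -1.34 and -0.67. Over 22 arrays Fth1 was most like Prkab2 (0.852), Stx7 (0.849) and Npff (0.832), and Tfrc was most like Utp4 (0.919), Surf2 (0.908) and Ncs1 (0.901), whose high dose changes were 1.17, 0.61 and 0.63. Control and exposed arrays enter these correlations together, so any genes that changed with exposure correlate.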

How the data were processed

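The deposited scanner files hold median spot intensity in both channels, which the authors extracted from the arrays. Per the file headers the software was Feature Extraction 10.7.3.1, while the methods of the study name another version. The authors also deposited the scanner's log10 ratios and a table of processed log2 ratios, used as alternatives here; how the latter were normalised is not given in the sources used here. The methods describe 3 separate exposure experiments and the labels 3 exposures for each dose and day with 6 biological replicates a group. Which arrays share an experiment is not stated, so n counts arrays, some may share an exposure experiment, and p-values measure the spread between these samples, which may be technical.

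Control spots were left out, spots marked non-uniform or population outliers set to missing, and log2(Cy5/Cy3) normalised by loess (span 0.3, 4 iterations) within each array without background subtraction. Spots of a probe were combined by their median. Detection on an array meant a Cy5 signal above that of 308 negative spots (5% trimmed mean and 3 trimmed SDs). The comparisons used limma 3.58.1 (R 4.3.3) with 1 model over 22 arrays with group and slide, in place of the study's shrinkage test, and p-values adjusted by Benjamini-Hochberg over 55681 probes. The script was tested on simulated data. Symbols came from a GRCm38.p6 table (47.4% of probes matched); the array grid was on mm9, so no probe coordinates are given. No pair of arrays held identical values (highest correlation 0.974). The number of arrays limits the precision.

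Same-numbered exposed and control arrays deviated together over 28178 probes (correlations 0.228 to 0.814 in 13 pairs on 1 slide, 0.274 and 0.487 in the other 2), and sample numbers largely follow the slides. Differently numbered arrays were not compared, so these correlations do not show that the number pairs samples. The genes, lists and naming rule were chosen with earlier results of these data known. The rule names the 10 genes, from each other list the called gene with the largest increase and decrease at the high dose, and the 3 genes most like Mt1, Fth1 and Tfrc; Slc39a6, Slc39a1, Cp, Flvcr1, Alas1, Ciapin1, Mtf1 and Mt3 were added after their values were seen.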

Additional observations from a re-analysis of the deposited data

Results flagged for a closer look

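Of 40 groups of values (10 genes in 4 groups), 5 held an array whose gap to its nearest neighbour was large for the range of the group by Dixon's test, which chance alone gives in about 1 of 20 groups. Mt1 at the medium dose had 1 low array at -2.04 on slide 2, the next being -1.43. Slc11a2 at the medium dose had a high array at 0.24 on slide 1, with the next at -0.14. Slc40a1 had a high control at -0.37 on slide 4, with the next at -0.90, and a low medium dose array at -0.81 on slide 1, with the next at -0.27. Tfrc had a low control at -1.46 on slide 1, with the next at -0.93.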

How the results depend on the processing

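Across the alternatives run (other normalisations, models, filters and thresholds, and leaving out each array or slide), Mt1, Mt2, Ftl1, Tfrc and Slc40a1 kept their sign at every dose, but counts of calls moved, and the cause was not tested except where named. An adjusted p of at most 0.05 at the low, medium and high dose was reached in 39, 41 and 41 of 42 alternatives for Mt1, in 2, 32 and 38 for Mt2, in 8, 34 and 41 for Ftl1, in 14, 27 and 38 for Tfrc and in 29, 30 and 38 for Slc40a1. Some of the 42 could not alter an adjusted p: the other fold limits, the lifted detection filter and, for a gene with 1 probe, the median over probes. Where the main fit passed, those alternatives passed by construction. Of the 10 genes, median centring called 0 at each dose (1, 3 and 6 of the other metal genes, from 6, 9 and 13); it moved the median of all genes by -0.107 at the low dose and called 48 genes higher and 242 lower there, against 292 and 404. Scanner ratios called 4 at the medium and 4 at the high dose. Over all genes they called 691 higher and 585 lower at the medium dose, against 562 and 618. At the high dose they called 966 higher and 929 lower, against 755 and 886. With no slide term the counts of the 10 genes were 1 and 1 at these doses. For the other models and for leaving out arrays or slides, counts over all genes are not given here. A fit of only the groups compared called 0 at the low and 1 at the medium dose, and the ordinary linear model 1 at the medium dose. With no fold limit the counts were 3, 5 and 5, and at 2-fold 0 at the low and 1 at the high dose. The replicate block, which pairs arrays by number, called 5 at the high dose, adding Slc30a1, Ftl1 and Tfrc, and changed no other call; slide as a random block called 3 there, adding Tfrc. Without slide 1 the counts were 1 at the low dose (Tfrc in place of Mt1), 0 at the medium dose, where 3 arrays a group cannot meet the detection rule, and 3 at the high dose (Mt1, Ftl1 and Tfrc). Without slide 2 the medium dose count was 1. Without slide 3 it was 1 at the medium and 1 at the high dose, and without slide 4 the counts were 3, 3 and 4, adding Slc40a1 at each dose. Leaving out single arrays gave 1 to 3 at the low dose (3 without control replicate 5), 1 to 3 at the medium dose (1 without control replicate 1 or 3 or medium dose replicate 4, 3 without control replicate 2 or 5 or medium dose replicate 2) and 2 to 4 at the high dose (4 without control replicate 2 or 5, 3 without high dose replicate 4).

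Signs turned for Aco1, Fth1 and Slc30a1, none of which had passed. Aco1 at the low dose was -0.15 with median centring, -0.020 with normexp, -0.061 in the authors' ratios, -0.016 with no slide term, -0.0057 with slide as a random block, -0.024 with the replicate block, -0.044 with only the groups compared, -0.029 without slide 1, -0.044 without slide 5 and -0.077 to 0.073 without single arrays. At the medium dose it was -0.023 with median centring, -0.067 without slide 1 and -0.028 to 0.12 without single arrays. Fth1 at the medium dose was 0.050 in the authors' ratios. Slc30a1 at the low dose was 0.035 without slide 3 and -0.33 to 0.0087 without single arrays. Signal over background limits Aco1 most, which was above the negative controls on 19 of 22 arrays.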
